A study of Mus musculus with 12 samples.

Results

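The genes of interstitial cells that lie among the smooth muscle of the gut and bladder were followed across tissue and genotype. They were chosen by name, as genes of interstitial cells of Cajal, of their ligand from muscle, and of PDGFRA-positive fibroblast-like cells. No threshold on their values was used, but earlier results of these data were known. The 10 genes were *Kit*, *Ano1*, *Etv1*, *Kitl*, *Pdgfra*, *P2ry1*, *Gja1*, *Gjc1*, *Thbd*, and *Prkcq*, of 54532 genes listed, and each was listed once in every library. RNA of colon and urinary bladder tissue was sequenced from male mice aged 5 to 7 weeks, in 12 libraries from 9 mice, with 3 Ctrl and 3 Y/T KO libraries in each tissue. All mice carried floxed *Yap1* and *Wwtr1* (the genes of YAP and TAZ) and all received 1 mg tamoxifen per day in 5 injections, and tissue was taken on day 7 after the first. The Y/T KO mice also carried Myh11CreERT2, a tamoxifen-inducible Cre recombinase driven by the promoter of smooth muscle myosin heavy chain, and the Ctrl mice were negative for it. Recombination was thus directed at smooth muscle cells, whereas the libraries held RNA of every cell in the piece of tissue. Mice 788 (Ctrl), 783, and 780 (both Y/T KO) gave both tissues. Values of single libraries are listed below in the order of mice 788, 786, and 787 for Ctrl colon, 759, 783, and 780 for Y/T KO colon, 784, 785, and 788 for Ctrl bladder, and 782, 783, and 780 for Y/T KO bladder.

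Interstitial cells of Cajal are the pacemakers of the gut. They depend on the receptor tyrosine kinase KIT, which is activated by stem cell factor, the product of *Kitl*, made by smooth muscle and other neighbours. Their slow waves rest on the calcium-activated chloride channel encoded by *Ano1*, and the transcription factor ETV1 maintains their identity downstream of KIT. PDGFRA-positive cells form a separate network that answers purines from inhibitory nerves through the receptor P2Y1, encoded by *P2ry1*. Both networks are coupled to muscle by gap junctions, built from connexins such as connexin 43 (*Gja1*) and connexin 45 (*Gjc1*). Several of these genes are also used by other cells. KIT marks mast cells, ANO1 is present in many epithelia, protein kinase C theta (*Prkcq*) is abundant in T cells, and thrombomodulin (*Thbd*) is carried by endothelium. In whole tissue, fewer cells of a type and less RNA per cell cannot be told apart.

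YAP and TAZ act on DNA mainly through TEAD factors, which often work beside AP-1, so the starts of these genes were searched for both letters. RefSeq windows of GRCm38.p6 were found for 8 of the 10 genes (*Thbd* and *Gjc1* had no entry), and the 250 bases before each start were read on both strands. The AP-1 motif TGANTCA was held by 6.75% of all windows and, among the 10 genes, by *Gja1*. The TEAD motif GGAATG was held by 12.6% of all windows and, among the 10 genes, by *Etv1*. The CArG box, bound by serum response factor, was held by 1.47% of all windows and by 0 of the 8 genes. Both matches are shown with 30 bases of sequence, the motif in capitals, because the genotypes differed by -0.87 on the log2 scale in bladder for *Gja1*, without passing the test, and *Etv1* is the transcription factor of the set. The first lies at chr10:56377270-56377299 and the second at chr12:38779992-38780021, both on the plus strand. The motif begins 19 bases before the RefSeq start of *Gja1* and 78 bases before that of *Etv1*, and the latter start lies inside the gene as the files delimit it. A match describes letters and not binding.
Gja1: ctccttccagtTGAGTCAgtggcttgaaac
Etv1: caaacaacgctaGGAATGagaactggttga

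Expression is given as TPM (a gene's share of all transcripts of its library, after correction for length), which keeps no read counts. Sequencing depth ran from 2.80 to 3.94 aligned gigabases per library (median 3.46), and the precision of each value is judged from the spread between mice. The defining epithelial markers followed the labels, with *Epcam* at 1480 to 1820 TPM in colon and 46.7 to 108 TPM in bladder, and *Upk2* at 642 to 905 TPM in bladder and 0 to 0.17 TPM in colon. *Yap1* stood at 98.6 to 110 TPM in Ctrl bladder and 69.4 to 72.1 TPM in the bladder libraries labelled Y/T KO, whereas its colon groups and both pairs of *Wwtr1* groups overlapped, so genotype is taken from the labels. The smooth muscle markers summed to 7510 to 8260 TPM in Ctrl colon, 4940 to 5810 TPM in Y/T KO colon, 35100 to 45700 TPM in Ctrl bladder, and 16700 to 30700 TPM in Y/T KO bladder. In each tissue 5 of these 8 markers were lower in Y/T KO at an unadjusted p under 0.05 and 0 at an adjusted one. Of all genes, 9.73% in colon and 14.8% in bladder had an unadjusted p under 0.05, in either direction. After the values were seen, 3 bladder libraries (Ctrl mouse 784 and Y/T KO mice 783 and 780) were found to stand apart by genes of male accessory glands, with *Sbp*, a secreted prostate protein, at 27200 to 39600 TPM against 14.3 to 35.3 TPM in the other 3. Genotype results of the 10 genes in bladder are therefore also given with a term for these libraries and without them. Bladder results of other genes are given from the fit of all libraries alone, where the part of the glands was not tested. In the colon, 7 of the 8 pancreatic acinar markers tested were lower in Y/T KO at an unadjusted p under 0.05 and 0 at an adjusted one. Their median log2 change was -5.14, whereas their sums overlapped, at 523 to 847 TPM in Ctrl colon and 618 to 773 TPM in Y/T KO colon. The part of pancreatic RNA in the colon results was not tested.

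The 10 genes covered a wide range of levels. In Ctrl colon *Ano1* had the highest median (85.2 TPM), followed by *Pdgfra* (44.6 TPM), *Gja1* (41.3 TPM), *Thbd* (39.6 TPM), *Kit* (33.8 TPM), and *Kitl* (33.4 TPM). The lowest were *P2ry1* (15.7 TPM), *Gjc1* (12.1 TPM), *Etv1* (1.91 TPM), and *Prkcq* (1.33 TPM). The ranges of *Pdgfra*, *Gja1*, *Thbd*, *Kit*, and *Kitl* overlapped, so their order within Ctrl colon is not resolved. In Ctrl bladder *Ano1* (94.5 TPM), *Gja1* (91.6 TPM), and *Pdgfra* (89.6 TPM) led with overlapping ranges, and *Thbd* (69.2 TPM) came next. *Gjc1* (26.6 TPM) and *Kitl* (21.5 TPM) followed, and *Kit* stood at a median of 12.9 TPM. *Prkcq* (7.99 TPM), *P2ry1* (6.59 TPM), and *Etv1* (4.04 TPM) were the lowest there. The medians above are of TPM as deposited, and the spread is given for TPM rescaled between the libraries of a tissue. On that rescaled scale replicates differed most for *Ano1* in Ctrl colon, where the coefficient of variation was 66.5%, and least for *Thbd* in the same group, at 1.59%. The median coefficient over the 10 genes, also after rescaling, was 14.2% in Ctrl colon, 21.9% in Y/T KO colon, 10% in Ctrl bladder, and 9.75% in Y/T KO bladder.

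**Figure D1:**
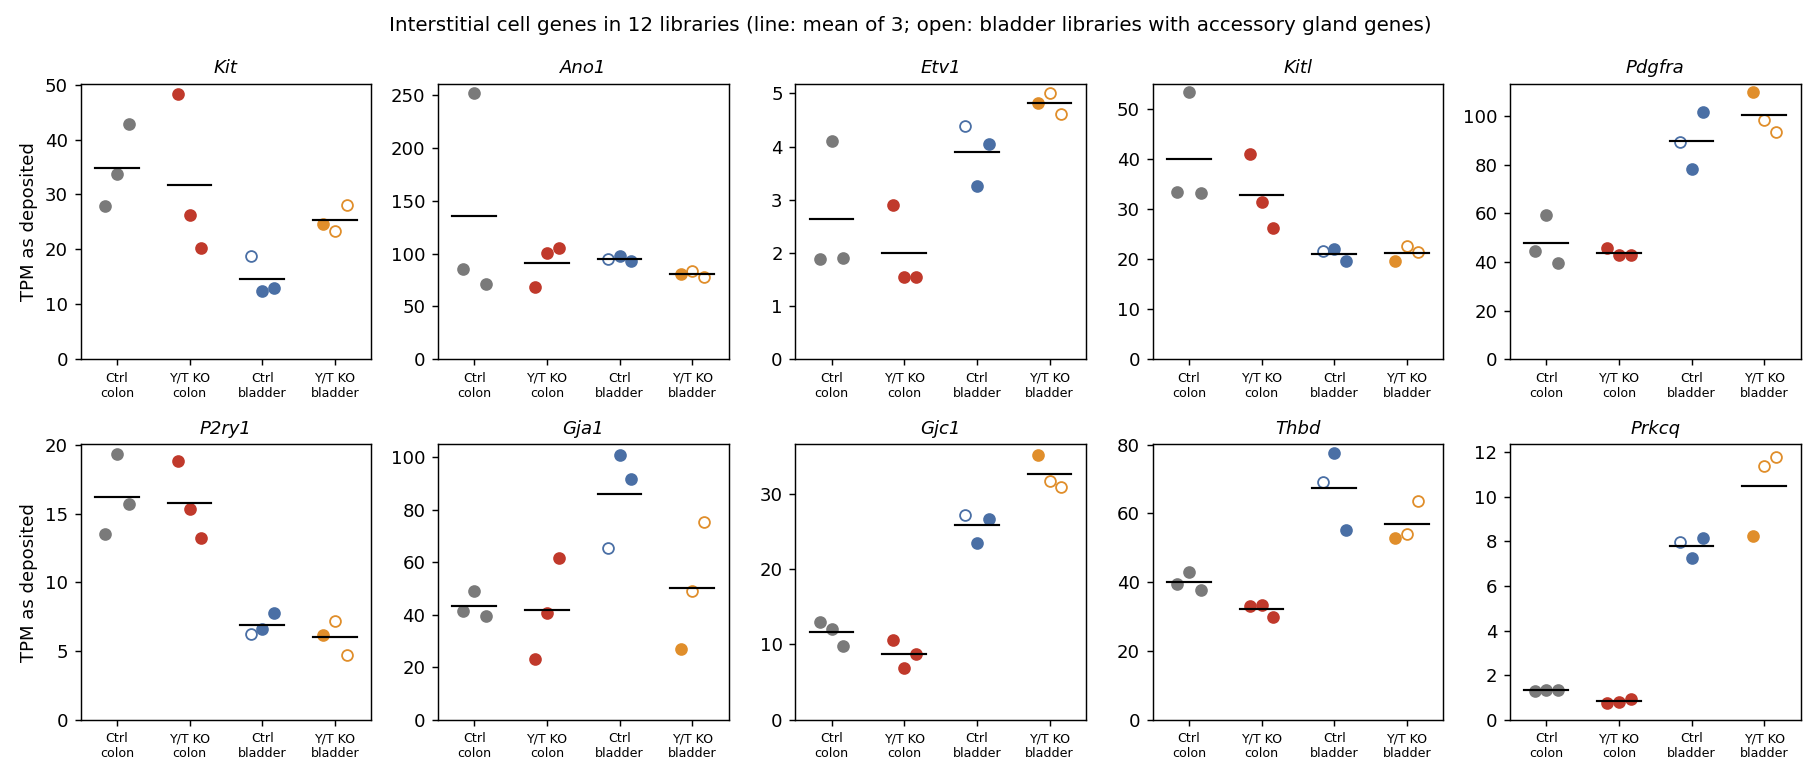
TPM as deposited (y axis of each panel, from 0) of the 10 genes in the 4 groups (x axis), 1 point per library, with a line at the mean of 3 and open points for the 3 bladder libraries with accessory gland genes. *Kit* in bladder was 12.4 to 18.7 TPM in the Ctrl libraries and 23.4 to 28.0 TPM in those of Y/T KO, and *Prkcq* was 1.30 to 1.34 TPM in Ctrl colon and 0.765 to 0.917 TPM in Y/T KO colon.

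Whether loss of YAP and TAZ in smooth muscle alters the interstitial cell genes was asked within each tissue. In the colon the fitted changes of the 10 genes were between -0.59 and 0.00 on the log2 scale, and 0 of 10 passed the test. *Etv1* turned to 0.03 in coverage and *P2ry1* to 0.03 in FPKM. Ctrl mouse 786 held the highest Ctrl colon values of *Ano1*, *P2ry1*, and *Pdgfra*. Without it their changes were 0.18, 0.07, and 0.04, and those of the other genes stayed below 0. In the bladder *Kit* was 1.74-fold and *Gjc1* 1.26-fold the Ctrl level, *Ano1* was 0.845-fold, and *Gja1* was 0.548-fold with a wide spread, and again 0 of 10 passed. Changes are on the scale of log2(rescaled TPM + 0.1), which understates those of genes near 0, and were tested by limma across all genes with Benjamini-Hochberg adjustment at 0.05. The background was 0.137% of 17500 genes called in the colon and 0.302% of 18237 in the bladder, so that calls were rare for any gene. The colon calls numbered 24 over all genes and 74 in a fit of all 12 libraries with the mouse as a replicate block, in which 0 of the 10 genes were called as well.

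None of the 10 genes differed in the colon at an unadjusted p under 0.05, where 9.73% of all genes did. In the bladder 3 did (*Kit* and *Gjc1* higher, *Ano1* lower), where 14.8% of all genes did. Every Y/T KO library lay on the same side of every Ctrl library for 2 of the 10 genes in the colon (*Thbd* and *Prkcq*, both lower), a share near the background of 16.1% of all genes. In the bladder the groups were separated in rescaled TPM for 4 of the 10 genes (*Kit*, *Etv1*, and *Gjc1* higher, *Ano1* lower), beside 22% of all genes. The median change of the 10 genes was -0.26 in colon and 0.09 in bladder, beside 0.01 and 0.00 over all genes tested.

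With a term for the 3 gland libraries the bladder changes were -0.26 for *Ano1*, 0.24 for *Etv1*, 0.18 for *Pdgfra*, -0.18 for *P2ry1*, 0.32 for *Gjc1*, -0.30 for *Thbd*, and 0.30 for *Prkcq*. Without those libraries they were -0.28 for *Ano1*, 0.37 for *Etv1*, 0.28 for *Pdgfra*, -0.24 for *P2ry1*, 0.46 for *Gjc1*, and -0.33 for *Thbd*. These kept the direction of the fit with all libraries, whereas *Kitl* turned to -0.05 and -0.11, and the values of *Kit* and *Gja1* and the rest of *Prkcq* are given below.

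**Figure D2:**
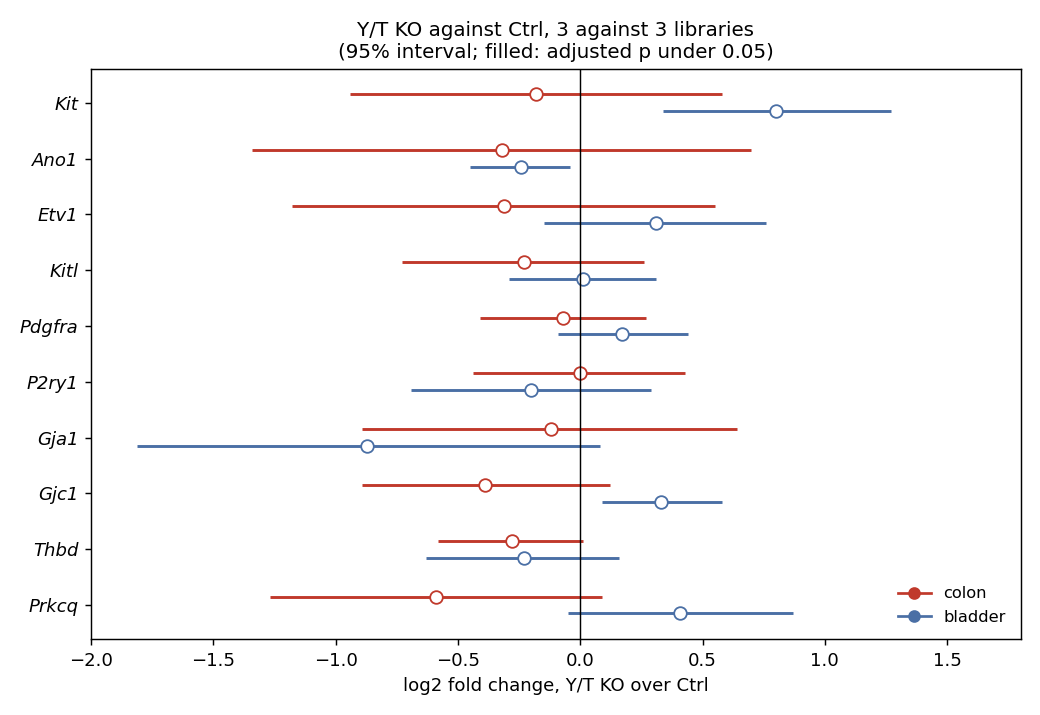
Log2 fold change of Y/T KO over Ctrl (x axis) of each of the 10 genes (y axis) in colon and bladder, with 95% intervals from limma on 3 against 3 libraries. All points are open because 0 of 10 adjusted p-values were under 0.05 in either tissue, and 3 bladder intervals (*Kit*, *Ano1*, *Gjc1*) leave out 0.

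*Kit* (ENSMUSG00000005672) lies on chromosome 5 of GRCm38 from 75574916 to 75656722, 377 kb beyond *Pdgfra*, which is its neighbouring receptor gene. In the bladder *Kit* stood at 18.7, 12.4, and 12.9 TPM in the Ctrl libraries, against 24.6, 23.4, and 28.0 TPM in Y/T KO. Every Y/T KO bladder library was above every Ctrl library. The log2 fold change was 0.80 (SE 0.19, 95% interval 0.34 to 1.27, limma adjusted p = 0.163). In the colon the values were 27.9, 33.8, and 42.9 TPM in Ctrl, against 48.4, 26.2, and 20.3 TPM in Y/T KO. The Y/T KO colon libraries held both the highest and the lowest value, and the change was -0.18 (SE 0.33, 95% interval -0.94 to 0.58, limma adjusted p = 0.874).

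The separation of *Kit* in the bladder was also seen in coverage, the mean read depth over the bases of the gene, here divided by the aligned gigabases of the library. Coverage comes from the same reads as TPM and is no independent measure. That of *Kit* was 3.81, 1.83, and 2.49 in Ctrl and 5.59, 5.24, and 5.73 in Y/T KO bladder, a log2 change of 1.08 (limma adjusted p = 0.180). Among the 3 bladder libraries with accessory gland genes *Kit* was 18.7 TPM in the Ctrl library and 23.4 and 28.0 TPM in the Y/T KO ones, and among the other 3 it was 12.4 and 12.9 TPM with the Ctrl genotype and 24.6 TPM with Y/T KO. On either side of this split the Y/T KO libraries were above the Ctrl ones, with a genotype held by only 1 library on each side. The part of the glands in the *Kit* values was not tested. A term for the gland libraries gave a log2 change of 0.68 (limma adjusted p = 0.191), and over all 9 alternatives that keep every library the adjusted p ran from 0.161 to 0.308. With 1 library left out it ran from 0.0959 to 0.427, with changes of 0.70 to 1.01, and without the 3 gland libraries the change was 0.92 (limma adjusted p = 1.0).

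Mast cells share *Kit* with the interstitial cells. The 12 mast cell markers summed to 84.6 to 106 TPM in Ctrl bladder and 65.5 to 89.2 TPM in Y/T KO bladder, with overlapping groups. Of the 9 tested there, 0 had an unadjusted p under 0.05, beside 14.8% of all genes. *Gata2* and *Hdc*, which other cells also use, were part of these sums, at 29.5 and 10.6 TPM in Ctrl mouse 784. *Cpa3*, a protease of mast cell granules, was 12.6, 10.3, and 10.2 TPM in Ctrl bladder, against 10.3, 10.6, and 11.4 TPM in Y/T KO bladder. In the colon the same markers summed to 19.2 to 27.0 TPM in the Ctrl libraries and 21.2 to 37.7 TPM in those of Y/T KO. Of the 7 tested there, 1 was higher in Y/T KO at an unadjusted p under 0.05, beside 9.73% of all genes in either direction. Their median log2 change was 0.67. The highest *Kit* value in colon (48.4 TPM, mouse 759) was in a library with 1.63 TPM of *Cpa3*, which is only 1 of these markers. The mast cell sum was lower in Ctrl colon than in Ctrl bladder, and *Mcpt1*, a mucosal mast cell protease, was listed at 0 in all bladder libraries. The part of mast cells in the *Kit* values was not tested.

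*Kitl* (ENSMUSG00000019966, chromosome 10 from 100015630 to 100100416), the ligand of KIT, stood at 21.5, 22.0, and 19.6 TPM in Ctrl bladder, against 19.6, 22.5, and 21.4 TPM in Y/T KO bladder. The groups overlapped fully, with a log2 change of 0.01 (SE 0.13, 95% interval -0.29 to 0.31, limma adjusted p = 0.979). In the colon it stood at 33.4, 53.3, and 33.1 TPM in Ctrl, against 40.9, 31.3, and 26.2 TPM in Y/T KO. The high Ctrl value came from mouse 786, and the change of -0.23 (SE 0.21, 95% interval -0.73 to 0.26) had a limma adjusted p of 0.734.

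*Etv1* (ENSMUSG00000004151, chromosome 12 from 38779380 to 38870484) was low in colon, at 1.89, 4.10, and 1.91 TPM in Ctrl, against 2.90, 1.55, and 1.54 TPM in Y/T KO. In both genotypes a single library was clearly above the other two, mouse 786 in Ctrl and mouse 759 in Y/T KO. The colon change was -0.31 (SE 0.37, limma adjusted p = 0.795) and turned to 0.03 in coverage. In the bladder *Etv1* stood at 4.38, 3.26, and 4.04 TPM in Ctrl, against 4.81, 5.01, and 4.62 TPM in Y/T KO. The Y/T KO bladder libraries lay just above the Ctrl ones in TPM and overlapped them in coverage, and the change was 0.31 (SE 0.19, limma adjusted p = 0.494).

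*Ano1* (ENSMUSG00000031075, chromosome 7 from 144588549 to 144751974, minus strand) was the highest of the 10 genes in colon. It stood at 85.2, 252, and 70.8 TPM in Ctrl colon, against 68.2, 101, and 105 TPM in the Y/T KO group. The value of Ctrl mouse 786 was far above the other 5, in coverage as well (37.9 against 11.3 to 22.8 per gigabase), and the log2 change was -0.32 (SE 0.43, limma adjusted p = 0.823). Without that library the change was 0.18, so its direction rested on 1 mouse. In the bladder *Ano1* was even, at 94.5, 98.1, and 93.3 TPM in Ctrl, against 80.3, 83.3, and 78.1 TPM in Y/T KO. All 3 Y/T KO bladder libraries were below the Ctrl libraries, by a log2 change of -0.24 (SE 0.09, 95% interval -0.45 to -0.04, limma adjusted p = 0.281). The urothelial markers, from an epithelium that lines the bladder, summed to 5870 to 6490 TPM in the Ctrl libraries and 4790 to 6150 TPM in those of Y/T KO. Of these 8 markers 2 were lower at an unadjusted p under 0.05, beside 14.8% of all genes in either direction. Their part in the *Ano1* value was not tested.

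*Prkcq* (ENSMUSG00000026778, chromosome 2 from 11172108 to 11301222, where *Gm36932* and *Gm37766* overlap it on the same strand), a protein kinase C of interstitial cells of Cajal and T cells, had Y/T KO values below Ctrl in colon and mostly above it in bladder. In the colon it stood at 1.30, 1.33, and 1.34 TPM in Ctrl, against 0.765, 0.797, and 0.917 TPM in Y/T KO, with tight and separate groups at a low level. The log2 change was -0.59 (SE 0.29, 95% interval -1.27 to 0.09, limma adjusted p = 0.569). Bladder values were 7.99, 7.26, and 8.14 TPM in Ctrl, against 8.26, 11.4, and 11.8 TPM in Y/T KO. The Y/T KO bladder libraries were above the Ctrl ones as deposited and in coverage, and overlapped them after rescaling, where mouse 782 stood at 7.90 TPM beside 8.17 TPM in Ctrl mouse 784. The change was 0.41 (SE 0.19, 95% interval -0.05 to 0.87, limma adjusted p = 0.378). Both higher Y/T KO values were of the libraries with accessory gland genes, and the Ctrl library with those genes was the middle one as deposited and the highest Ctrl bladder in rescaled TPM and in coverage. Without these 3 libraries the change was 0.07, and their part in it was not tested. The 8 T cell markers summed to 13.5 to 16.5 TPM in Ctrl colon and 15.8 to 19.5 TPM in Y/T KO colon, and to 14.1 to 21.9 TPM in Ctrl bladder and 12.4 to 16.2 TPM in Y/T KO bladder. *Cd3e*, a chain of the T cell receptor complex, was present in every library at 0.902 to 2.72 TPM. At an unadjusted p under 0.05, 3 of the 5 T cell markers tested were higher in Y/T KO colon, beside 9.73% of all genes in either direction. The part of T cells in the *Prkcq* values was not tested.

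*Pdgfra* (ENSMUSG00000029231, chromosome 5 from 75152292 to 75198215), the receptor that names the fibroblast-like network, was among the genes with the smallest genotype difference. It stood at 44.6, 59.5, and 39.4 TPM in Ctrl colon, against 45.6, 43.0, and 42.8 TPM in the Y/T KO group, with the Y/T KO values inside the Ctrl range. The log2 change was -0.07 (SE 0.15, 95% interval -0.41 to 0.27, limma adjusted p = 0.896). The bladder libraries held 89.6, 78.3, and 102 TPM in Ctrl, against 110, 98.7, and 93.7 TPM in Y/T KO. The groups overlapped, and the change was 0.17 (SE 0.11, 95% interval -0.09 to 0.44, limma adjusted p = 0.520).

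*P2ry1* (ENSMUSG00000027765, chromosome 3 from 61002795 to 61008982), the purine receptor of these cells, stood at 13.5, 19.3, and 15.7 TPM in Ctrl colon, against 18.8, 15.3, and 13.2 TPM in the Y/T KO group. The groups covered nearly the same range, and the 95% interval of the log2 change was -0.44 to 0.43. In bladder the libraries held 6.23, 6.59, and 7.78 TPM in Ctrl, against 6.19, 7.17, and 4.73 TPM in Y/T KO, again overlapping, with a change of -0.20 (SE 0.21, limma adjusted p = 0.687). Genes of the fibroblast list, whose cells lie beside the PDGFRA network, summed to 2230 to 2890 TPM in Ctrl colon and 2520 to 3170 TPM in Y/T KO colon, and to 10200 to 12600 TPM and 9400 to 12300 TPM in bladder. In the bladder 3 of these 8 markers were higher and 2 lower in Y/T KO at an unadjusted p under 0.05, and in the colon 1 was higher. The share of all genes at that p was 14.8% in the bladder and 9.73% in the colon.

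*Gja1* (ENSMUSG00000050953, chromosome 10 from 56377330 to 56402513) encodes connexin 43, a gap junction protein of muscle, urothelium, and fibroblasts. Bladder values were 65.4, 101, and 91.6 TPM in Ctrl, against 26.8, 49.1, and 75.2 TPM in Y/T KO. Of the latter, those of mice 782 and 783 were below all Ctrl libraries and that of mouse 780 was not, so the groups overlapped. The log2 change of -0.87 (SE 0.39, 95% interval -1.81 to 0.08, limma adjusted p = 0.368) was the largest of the 10 genes in size, whereas in coverage that of *Kit* was larger (1.08 against -0.85). It was -0.45 without mouse 782, and when 1 library was dropped the limma adjusted p lay between 0.341 and 0.664. In the colon *Gja1* stood at 41.3, 49.2, and 39.5 TPM in Ctrl, against 23.0, 40.7, and 61.5 TPM in Y/T KO. The Y/T KO colons spread on both sides of the Ctrl colons. After rescaling, the coefficient of variation was 47.4% in Y/T KO and 4.57% in Ctrl, where the values were 41.6, 44.5, and 40.8 TPM. The change was -0.12 (SE 0.33, limma adjusted p = 0.919). Among the mice that gave both tissues, *Gja1* was 41.3 TPM in colon and 91.6 TPM in bladder of Ctrl mouse 788, 40.7 and 49.1 TPM in mouse 783, and 61.5 and 75.2 TPM in mouse 780. Mouse 780 was the highest of its group in each tissue, and mice 788 and 783 were the middle of theirs.

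Across the accessory gland split *Gja1* differed in opposite directions by genotype, and each direction rested on a single library. The Ctrl library with gland genes (65.4 TPM) was below the other Ctrl libraries (101 and 91.6 TPM), and both Y/T KO libraries with them (49.1 and 75.2 TPM) were above the one without (26.8 TPM). With a term for the gland libraries the log2 change was -1.0 (limma adjusted p = 0.386). With the 3 libraries left out, which leaves a single Y/T KO bladder assumed to vary like the other groups, it was -1.87. The part of the glands in this value was not tested.

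*Gjc1* (ENSMUSG00000034520, chromosome 11 from 102799579 to 102819700, minus strand) encodes connexin 45. The bladder libraries held 27.2, 23.5, and 26.6 TPM in Ctrl, against 35.1, 31.7, and 30.8 TPM in Y/T KO. All Y/T KO bladder libraries were above the Ctrl libraries, by a log2 change of 0.33 (SE 0.10, 95% interval 0.09 to 0.58, limma adjusted p = 0.234). In coverage they were separate as well, at 5.27, 4.91, and 5.06 per gigabase in Ctrl and 5.99, 5.54, and 5.72 in Y/T KO, but the log2 change was smaller, at 0.18. In the colon *Gjc1* stood at 13.0, 12.1, and 9.75 TPM in Ctrl, against 10.6, 6.83, and 8.76 TPM in Y/T KO. The groups overlapped at the lowest Ctrl value, with a change of -0.39 (SE 0.22, 95% interval -0.89 to 0.12, limma adjusted p = 0.610). The fitted bladder values of the 2 connexins lay on opposite sides of Ctrl, and the difference between them was not tested.

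*Thbd* (ENSMUSG00000074743, chromosome 2 from 148404466 to 148408188, minus strand) encodes thrombomodulin, the thrombin receptor that starts protein C activation. In the colon it stood at 39.6, 42.9, and 37.8 TPM in Ctrl, against 33.2, 33.3, and 29.8 TPM in Y/T KO. Both groups were tight and did not overlap, and the log2 change was -0.28 (SE 0.13, 95% interval -0.58 to 0.01, limma adjusted p = 0.526). In bladder the libraries held 69.2, 77.7, and 55.2 TPM in Ctrl, against 53.0, 54.1, and 63.6 TPM in Y/T KO. Here the groups overlapped through Ctrl mouse 788 and Y/T KO mouse 780, and the change was -0.23 (SE 0.16, limma adjusted p = 0.546). The endothelial markers summed to 96.5 to 126 TPM in Ctrl colon and 107 to 140 TPM in Y/T KO colon, and *Pecam1* was 36.4, 43.8, and 31.7 TPM in Ctrl colon, against 34.2, 42.1, and 29.2 TPM in the Y/T KO group. The endothelial sums overlapped between the genotypes of the colon. At an unadjusted p under 0.05, 1 of the 8 markers was higher in Y/T KO colon, beside 9.73% of all genes in either direction. The part of endothelium in the *Thbd* values was not tested.

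**Figure D3:**
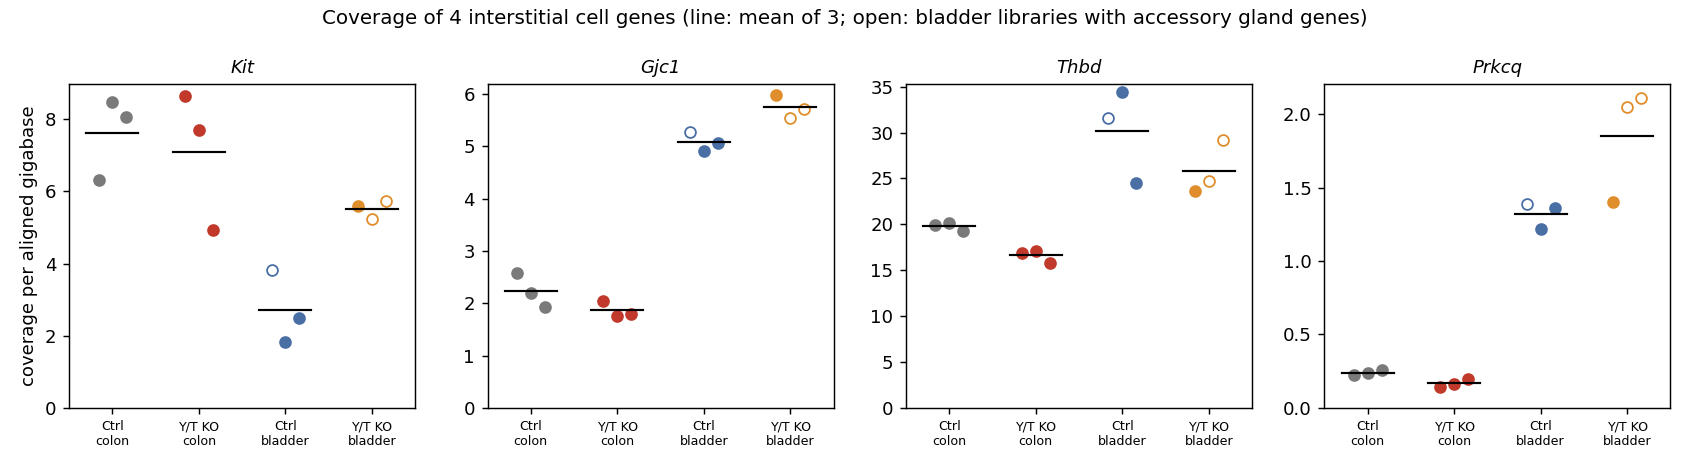
Coverage per aligned gigabase (y axis, from 0) of *Kit*, *Gjc1*, *Thbd*, and *Prkcq* in the 4 groups (x axis), 1 point per library, with a line at the mean of 3 and open points for bladder libraries with accessory gland genes. On this scale the genotypes were separate for *Kit* and *Gjc1* in bladder, for *Thbd* in colon, and for *Prkcq* in both tissues, lower in Y/T KO colon (0.144 to 0.193 against 0.225 to 0.256) and higher in Y/T KO bladder (1.40 to 2.11 against 1.22 to 1.39).

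The genotype effect itself was then compared between the tissues, as the interaction in a fit of all 12 libraries. *Prkcq*, *Kit*, and *Gjc1* had the largest contrasts relative to their error, each with a lower Y/T KO effect in colon than in bladder, and 0 of the 10 genes passed the test, beside 0.0491% of 16298 genes. For *Prkcq* the effect in colon minus that in bladder was -1.03 on the log2 scale (SE 0.29, 95% interval -1.67 to -0.38, limma adjusted p = 0.238). For *Kit* it was -1.0 (SE 0.42, 95% interval -1.92 to -0.08, limma adjusted p = 0.359). For *Gjc1* it was -0.74 (SE 0.24, 95% interval -1.27 to -0.22, limma adjusted p = 0.273). These 3 of the 10 genes had an unadjusted p under 0.05, as did 12.6% of all genes. *Gja1* had a contrast of 0.72 in the other direction (95% interval -0.50 to 1.95), which was 1.73 without the gland libraries, 0.31 without Y/T KO bladder mouse 782, and 0.38 without Y/T KO colon mouse 780. The contrast of *Etv1* was -0.65 (95% interval -1.62 to 0.32), and those of the remaining 5 genes were between -0.27 and 0.18.

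Colon and bladder were next compared within each genotype. The Ctrl tissues differed in most of the set, with *Kit*, its ligand gene, and the purine receptor gene higher in colon and the genes of the PDGF receptor, connexin 45, and thrombomodulin and *Prkcq* higher in bladder. In Ctrl 7 of the 10 genes passed the test, 3 higher and 4 lower in colon, and in Y/T KO also 7, 2 higher and 5 lower. The background was 50.4% of 19773 genes in Ctrl and 51.3% in Y/T KO, with 4959 genes higher and 5004 lower in Ctrl colon and 5093 higher and 5060 lower in Y/T KO colon, so a call between these organs is common for any gene. The median log2 difference of the 10 genes was -0.43 in Ctrl and -0.27 in Y/T KO, beside 0.01 over all genes in both. Without rescaling, as deposited, the all-gene median was -0.24 in Ctrl and -0.26 in Y/T KO, and the split was 3510 higher and 6312 lower in Ctrl and 3634 higher and 6700 lower in Y/T KO, but the calls of the 10 genes kept their directions.

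**Figure D4:**
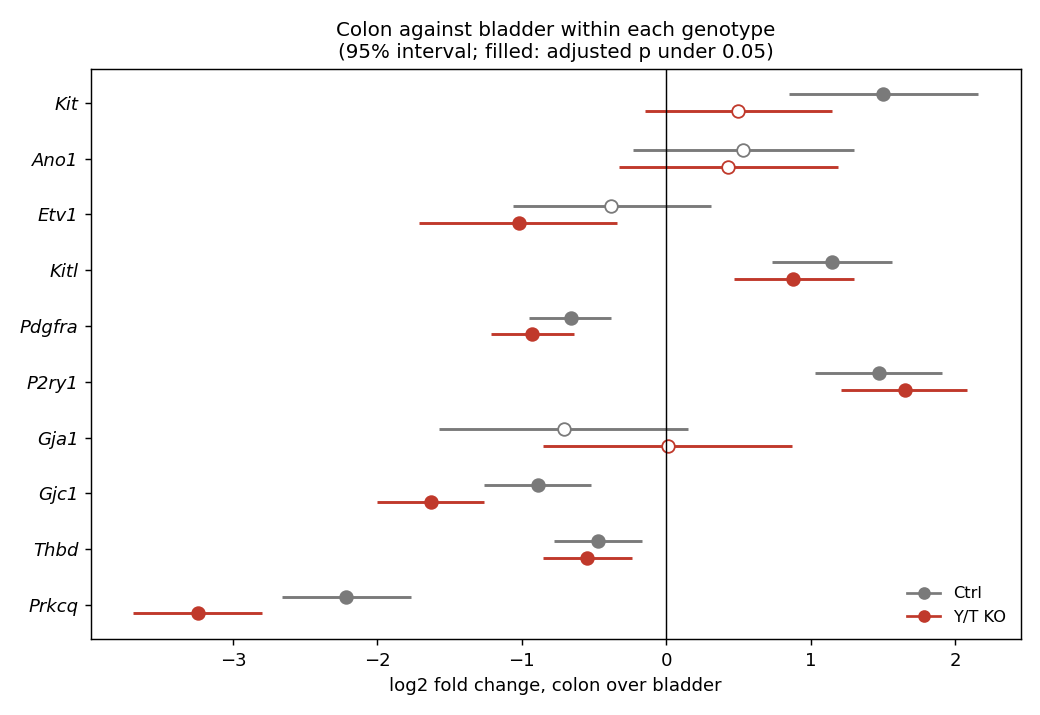
Log2 fold change of colon over bladder (x axis) of each of the 10 genes (y axis) in Ctrl and in Y/T KO, with 95% intervals from limma over all 12 libraries, and filled points for an adjusted p under 0.05. *Kit* is filled in Ctrl (1.5) and open in Y/T KO (0.50), and *Prkcq* lies farthest from 0 in both (-2.22 and -3.24).

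*Kit* was 27.9 to 42.9 TPM in Ctrl colon and 12.4 to 18.7 TPM in Ctrl bladder, a log2 difference of 1.5 (SE 0.30, limma adjusted p = 0.00134) with no overlap. In Y/T KO, at 20.3 to 48.4 TPM in colon and 23.4 to 28.0 TPM in bladder, the tissues overlapped and the difference was 0.50 (SE 0.30, 95% interval -0.15 to 1.15, limma adjusted p = 0.183). The test of the difference between these contrasts is the interaction given above, which did not pass. The order of the groups for *Kit* was Ctrl colon, Y/T KO colon, Y/T KO bladder, and Ctrl bladder by median, at 33.8, 26.2, 24.6, and 12.9 TPM as deposited, and of these Ctrl bladder was separate from its neighbour while the others overlapped.

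*Kitl* was higher in colon in both genotypes, by 1.15 in Ctrl (SE 0.19, limma adjusted p = 0.000369) and 0.88 in Y/T KO (SE 0.19, limma adjusted p = 0.00224) on the log2 scale. *P2ry1* was higher in colon by 1.47 in Ctrl (SE 0.20, limma adjusted p = 8.33e-05) and 1.65 in Y/T KO (SE 0.20, limma adjusted p = 3.52e-05). For both genes all colon libraries were above all bladder libraries, while the genotypes within a tissue overlapped.

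*Prkcq* had the largest tissue difference of the set and was lower in colon, by -2.22 in Ctrl (SE 0.20, limma adjusted p = 3.91e-06) and -3.24 in Y/T KO (SE 0.20, limma adjusted p = 1.74e-07). *Gjc1* was lower in colon by -0.89 in Ctrl (SE 0.17, limma adjusted p = 0.000989) and -1.63 in Y/T KO (SE 0.17, limma adjusted p = 9.97e-06). *Pdgfra* was lower by -0.66 in Ctrl (SE 0.13, limma adjusted p = 0.00126) and -0.93 in Y/T KO (SE 0.13, limma adjusted p = 0.000111). For these 3 genes all colon libraries were below all bladder libraries.

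*Thbd* was lower in colon by -0.47 in Ctrl (SE 0.14, limma adjusted p = 0.0139) and -0.55 in Y/T KO (SE 0.14, limma adjusted p = 0.00632). The Ctrl call was lost without Ctrl bladder mouse 785 (-0.37, limma adjusted p = 0.0596), whose 77.7 TPM was the highest value of *Thbd*, and the Y/T KO call with a term for the gland libraries (-0.43, limma adjusted p = 0.0601). With the 3 gland libraries left out neither call held (-0.45, limma adjusted p = 0.0606, and -0.41, limma adjusted p = 0.171). *Etv1* was called in Y/T KO (-1.02, SE 0.31, limma adjusted p = 0.0169) and not in Ctrl (-0.38, SE 0.31, limma adjusted p = 0.344). The Y/T KO call of *Etv1* was lost without colon mouse 783 (-0.87, limma adjusted p = 0.0636), colon mouse 780 (-0.88, limma adjusted p = 0.0615), or bladder mouse 783 (-0.97, limma adjusted p = 0.0513), and in coverage (-0.82, limma adjusted p = 0.0828). It was also lost with a term for the gland libraries (-0.89, limma adjusted p = 0.0917) and without them (-0.99, limma adjusted p = 0.165).

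*Ano1* and *Gja1* were called in neither genotype. *Ano1* differed by 0.53 in Ctrl (95% interval -0.23 to 1.30) and 0.43 in Y/T KO (95% interval -0.33 to 1.19). *Gja1* differed by -0.71 in Ctrl (95% interval -1.57 to 0.15), where all 3 colon libraries were below the bladder libraries, and by 0.01 in Y/T KO (95% interval -0.85 to 0.87), a value that turned to -0.26 in TPM as deposited and was 0.27 with a gland term and 0.84 without the gland libraries. These intervals do not show that the tissues were alike. The smooth muscle markers were called lower in colon for 8 of 8 genes in both genotypes, the endothelial markers for 8 of 8, and the fibroblast markers for 7 of 8. Over all genes 50.4% were called in Ctrl and 51.3% in Y/T KO, in either direction. The part of cell makeup in the tissue differences was not tested.

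The wider pathways around the set were read from 8 lists of 108 genes. In the colon 87 of these were tested and in the bladder 86, and 0 were called between genotypes in either by limma. At an unadjusted p under 0.05, 1 was higher and 7 lower in Y/T KO colon, and 3 were higher and 15 lower in Y/T KO bladder, beside 9.73% and 14.8% of all genes in either direction. The median change over the listed genes was -0.09 in colon and -0.10 in bladder. Of 82 listed genes tested, 0 had a called difference of the genotype effect between tissues, and at an unadjusted p under 0.05 this effect was higher in colon for 9 and lower for 4. Between the tissues 64 of 92 listed genes were called in Ctrl, 32 higher and 32 lower in colon, and 60 in Y/T KO, 30 each way, beside 50.4% and 51.3% of all genes.

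Of 9 other genes of interstitial cells of Cajal that were tested, 0 reached an unadjusted p under 0.05 in the colon and 1 did in the bladder. Of all genes 9.73% and 14.8% reached it. The median change of the 9 genes was -0.17 in colon and 0.12 in bladder. *Gpr20*, an orphan receptor used as a marker of these cells, was 17.1, 15.3, and 19.0 TPM in Ctrl colon, against 21.2, 18.5, and 13.9 TPM in the Y/T KO group, overlapping as *Kit* did. In the bladder it was 4.02, 1.95, and 4.06 TPM in Ctrl, against 5.63, 3.01, and 3.00 TPM in Y/T KO, and it was higher in Ctrl colon than in Ctrl bladder by 2.64 on the log2 scale (SE 0.32, limma adjusted p = 3.21e-05). *Adgrd1*, an adhesion receptor, differed the other way, at 9.06 to 19.2 TPM in Ctrl colon and 172 to 200 TPM in Ctrl bladder (-3.55, SE 0.22, limma adjusted p = 1.42e-07). *Slc12a2*, the sodium, potassium, and chloride carrier that loads these cells with chloride and is abundant in secretory epithelium, was chosen after its values were seen and was 119, 186, and 230 TPM in the 3 bladder libraries with gland genes and 7.99 to 8.50 TPM in the other 3.

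The KIT signalling list held 25 genes, all tested, from adaptors such as *Grb2* to feedback inhibitors and ETS factors. At an unadjusted p under 0.05, 0 were higher and 3 lower in Y/T KO colon, and 1 was higher and 6 lower in Y/T KO bladder, beside 9.73% and 14.8% of all genes. *Src*, a kinase activated by KIT and many other receptors, chosen here after its values were seen, was 55.1, 62.3, and 63.5 TPM in Ctrl bladder, against 37.5, 42.5, and 40.3 TPM in Y/T KO bladder. The groups were far apart relative to their spread (log2 change -0.59, limma adjusted p = 0.103), while the colon change was 0.05. *Etv5*, an ETS factor related to *Etv1* and also chosen after its values were seen, was 10.9, 12.5, and 10.8 TPM in Ctrl colon, against 8.08, 8.24, and 7.92 TPM in the Y/T KO group, and 14.6, 16.4, and 14.4 TPM in Ctrl bladder, against 13.1, 11.6, and 10.4 TPM in Y/T KO bladder. It was thus below Ctrl in both tissues, by -0.45 (limma adjusted p = 0.456) and -0.37 (limma adjusted p = 0.281) on the log2 scale. Between tissues *Etv4* had the largest Ctrl difference of the list and was higher in colon (5.94, limma adjusted p = 1.87e-05).

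Of the PDGF ligands and other receptor genes, 6 of 6 were tested. *Pdgfrl*, which encodes a receptor-like protein without a kinase and was chosen after its values were seen, had Y/T KO values above Ctrl in colon and below it in bladder. It was 2.15, 2.20, and 1.52 TPM in Ctrl colon, against 2.49, 3.05, and 3.62 TPM in the Y/T KO group. In the bladder it was 41.2, 38.3, and 28.9 TPM in Ctrl, against 25.0, 20.1, and 20.6 TPM in Y/T KO. Both pairs of groups were separate, and the effect in colon minus that in bladder was 1.34 on the log2 scale (limma adjusted p = 0.166), opposite in sign to that of *Prkcq*. *Pdgfrl* (-3.88, limma adjusted p = 3.84e-08) and *Pdgfc* (-2.07, limma adjusted p = 5.04e-06), a ligand of PDGFRA, had the largest Ctrl tissue differences of the list, and *Pdgfd* (-2.62, limma adjusted p = 7.11e-05), a ligand of PDGFRB, led in Y/T KO. Like *Pdgfra*, all were lower in colon. *Pdgfa*, a ligand of PDGFRA chosen after its values were seen, was higher in Ctrl colon (1.03), at 47.4 to 57.9 TPM in Ctrl colon and 26.8 to 33.5 TPM in Ctrl bladder.

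The list of other genes of PDGFRA cells and purinergic relaxation held 20 genes, of which 18 were tested in colon and 19 in bladder. Small-conductance potassium channels carry the relaxation that P2Y1 triggers. *Kcnn3*, the main such channel of PDGFRA cells, was 10, 11.1, and 8.01 TPM in Ctrl bladder, against 3.96, 7.10, and 3.58 TPM in Y/T KO bladder. All Y/T KO values were below Ctrl (log2 change -1.03, limma adjusted p = 0.224), and in the colon, at 1.65 to 2.56 TPM in the Ctrl libraries and 1.21 to 2.18 TPM in those of Y/T KO, they overlapped. *Kcnn2* was 8.22, 12.5, and 7.90 TPM in Ctrl bladder, against 6.81, 3.71, and 4.38 TPM in Y/T KO bladder (-0.94, limma adjusted p = 0.216). It was low in colon (0.44 to 0.60 TPM in the Ctrl libraries and 0.05 to 0.12 TPM in those of Y/T KO) and had the largest tissue difference of the list in Y/T KO (-4.44, limma adjusted p = 3.14e-07). For that comparison it passed the filter of 0.5 TPM through its bladder values, and the size of the difference depended on the added 0.1 TPM. Both channel genes were thus below Ctrl in every Y/T KO bladder without passing the test, beside overlapping values of *P2ry1*, and *Kcnn3* was chosen after its values were seen.

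*P2ry14*, a receptor for UDP sugars chosen after its values were seen, was 21.1, 22.4, and 19.2 TPM in Ctrl colon, against 12.8, 11.2, and 9.31 TPM in the Y/T KO group (log2 change -0.88, limma adjusted p = 0.170). In the bladder, at 5.15, 5.19, and 2.80 TPM in Ctrl, against 6.33, 5.33, and 6.90 TPM in Y/T KO, the order of the genotypes was the opposite (0.53, limma adjusted p = 0.440). *Nt5e*, which makes adenosine from AMP and was also chosen after its values were seen, was 68.3, 42.7, and 49.5 TPM in Ctrl bladder, against 93.0, 86.4, and 79.6 TPM in Y/T KO bladder (0.71, limma adjusted p = 0.184). Its colon change was -0.17. *P2ry4* was listed at 0 in all bladder libraries and stood at 1.12 to 2.53 TPM in Ctrl colon, and *Slc17a9*, the transporter that loads vesicles with ATP, was higher in Y/T KO colon than in Y/T KO bladder (3.83, limma adjusted p = 8.98e-07).

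Of the other connexins and pannexins, 9 of 21 were tested in colon and 11 in bladder. Between genotypes 1 of these reached an unadjusted p under 0.05, in the bladder, beside 14.8% of all genes there. *Gjb6*, an epithelial connexin, had the largest tissue difference, at 63.3 to 75.7 TPM in Ctrl bladder and 0 to 0.11 TPM in Ctrl colon. *Gjb1* was 56.3 to 68.2 TPM in Ctrl colon, and in bladder it was 11.9, 18.0, and 22.5 TPM in the 3 libraries with gland genes and 0.13 to 0.34 TPM in the others. Of the other anoctamins, 6 of 9 were tested in colon and 4 in bladder, and *Ano7* (5.95 in Ctrl, limma adjusted p = 4.85e-09) and *Ano9* (3.70, limma adjusted p = 8.99e-08) were higher in colon. *Ano7* was 0.128 to 0.293 TPM in bladder and passed the filter of 0.5 TPM through its colon values alone. The size of its difference therefore depended on the added 0.1 TPM.

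Among the other protein kinase C genes, *Prkcb* shared the tissue direction of *Prkcq*, at 5.79 to 12.6 TPM in Ctrl colon and 112 to 143 TPM in Ctrl bladder (-3.56, limma adjusted p = 3.01e-06). In Y/T KO bladder it was 102, 66.8, and 67.2 TPM, below the 3 Ctrl libraries (log2 change -0.74, limma adjusted p = 0.151), where *Prkcq* was above most of them. *Prkcd* was higher in colon (1.67 in Ctrl, limma adjusted p = 1.26e-06), and *Prkch* was lower in Y/T KO colon than in Y/T KO bladder (-1.49). Around thrombomodulin, 7 of 9 genes of the protein C system were tested in colon and 5 in bladder. Between genotypes 1 of these had an unadjusted p under 0.05, in the bladder, beside 14.8% of all genes there. *F3*, which encodes tissue factor, was higher in Y/T KO colon than in Y/T KO bladder (1.09, limma adjusted p = 0.0174), and *Proc* (2.09, limma adjusted p = 0.0186) and *Serpinc1* (1.89, limma adjusted p = 0.00728) were higher in Ctrl colon at levels under 1 TPM. *Proc* passed the filter of 0.5 TPM through its colon values alone. The Ctrl bladder means were 0.0539 TPM for *Proc* and 0.105 TPM for *Serpinc1*, so the size of both differences depended on the added 0.1 TPM.

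Likeness of pattern was described by Pearson's r of log2(rescaled TPM + 0.1), centred on the mean of each tissue, over the 12 libraries, which share mice, depth, and composition. Over the 45 pairs of the 10 genes r had a median of 0.27 and ran from -0.68 (*Kit* with *Gja1*) to 0.84 (*Etv1* with *Kitl*). *Etv1* was also like *Pdgfra* (0.77), and *Gjc1* like *Prkcq* and like *Etv1* (0.62 each). For *Etv1*, *Kitl*, and *Pdgfra* alike, mouse 786 was the highest Ctrl colon and mouse 759 the highest Y/T KO colon. Their r without these libraries was not computed. The genes most like *Kit* among 14771 were *Decr1* (0.922), *Apmap* (0.916), and *Serpini1* (0.915). *Etv1* was most like *Arl8b* (0.983), *Yipf4* (0.967), and *Sp1* (0.954), and *Ano1*, whose pattern rested on Ctrl mouse 786, was most like *Cdc26* (0.974), *Krit1* (0.951), and *Ankfy1* (0.950). *Kitl* was most like *Lin7c* (0.959), *Serinc1* (0.952), and *Jam2* (0.949). *Pdgfra* was most like *Pde5a* (0.891), *Plscr4* (0.888), and *Tmed8* (0.884), and *P2ry1* was most like *Arsj* (0.899), *Erich1* (0.895), and *Glcci1* (0.893). *Gja1* was most like *Sec24c* (0.903), *Arid3a* (0.851), and *Arf2* (0.833), and *Gjc1* was most like *Gm10226* (0.940), *Zfp58* (0.937), and *Zfp606* (0.899). *Thbd* was most like *Slc38a1* (0.901), *Gcnt2* (0.887), and *Myl12a* (0.880). *Prkcq* was most like *Nov* (0.946), *Gja5* (0.910), which encodes the vascular connexin 40, and *D3Ertd751e* (0.891). With so many genes and 12 libraries, values of this size are a description.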

How the data were processed

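Colon and bladder RNA was sequenced as stranded mRNA libraries. Per the labels the authors used bcl2fastq, FastQC, HISAT2, and StringTie with GRCm38, and DESeq2 for their own test. The deposited TPM values are transcript shares that sum to the same total in every library, the deposited FPKM values are fragments per kilobase scaled to mapped fragments, and the deposited coverage is the mean read depth of a gene. Rows of a gene ID were summed. A library's aligned gigabases were read from its modal coverage per FPKM.

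TPM values were rescaled by median-of-ratios size factors, and a gene was kept if 3 or more libraries reached 0.5 TPM. Their log2(TPM + 0.1) was fitted with limma 3.58.1 in R 4.3.3 (trend and robust options), and a Benjamini-Hochberg adjusted p under 0.05 was called. Genotypes were compared within the 6 libraries of a tissue, and the interaction and the tissues over all 12. All p-values are two-sided. Figures were drawn with matplotlib 3.10.9 in Python 3.11.15.

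Replicate numbers are mouse numbers, so 3 mice pair colon with bladder. Deviations from the group means correlated at 0.034 on average within these 3 pairs (-0.00913 to 0.0675) and at -0.00686 over the 15 other pairs of a colon and a bladder library of one genotype.

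The alternatives were a pseudocount of 1 TPM, no filter, TPM or FPKM as deposited, no trend or robust options, all 12 libraries in a single fit, the mouse as a block, and each library left out. Coverage per gigabase and both treatments of the libraries with over 1000 TPM of *Sbp* were added after the values were seen. The pipeline was tested on simulated data.

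The 10 genes and all lists were chosen with earlier results of these data known. Besides them, the text names the floxed genes, the list genes called between genotypes, the 2 called genes with the largest tissue difference in a list, the 3 genes most like each of the 10, defining markers, and genes said to be chosen after their values were seen. Some genes that this rule selects are not reported here. Read counts were not used here.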

Additional observations from a re-analysis of the deposited data

Results flagged for a closer look

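*Prkcq* was flagged because, in TPM as deposited and in coverage, every Y/T KO colon library lay below every Ctrl colon library and every Y/T KO bladder library above every Ctrl bladder library. The log2 effect in colon minus that in bladder was -1.03 (SE 0.29), with a limma adjusted p of 0.238 that did not pass. After rescaling the bladder groups overlapped. Both high Y/T KO bladder values came from libraries with accessory gland genes, and with these modelled the contrast was -0.91 (limma adjusted p = 0.342). The part of the glands in it was not tested.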

How the results depend on the processing

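0 of the 10 genes were called between genotypes or in the interaction under any alternative. For single genes, 435 of 450 values under alternatives other than a single library left out kept their direction and side of the threshold, as did 338 of 360 values with 1 library left out. With the mouse as a replicate block, colon calls over all genes numbered 74, against 75 in the fit of all 12 libraries without it and 24 by tissue, and the block changed no call of the 10 genes in this paired analysis. Without the filter the colon calls numbered 6 and those of the interaction 13. Leaving out the 3 gland libraries gave 9 bladder calls and 6638 in Y/T KO between tissues, with fewer samples. Leaving out 1 library gave 5 to 63 colon calls (63 without Y/T KO mouse 759), 11 to 51 bladder calls, and 6 to 28 of the interaction.

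Values near 0 turned sign. In the colon *Etv1* was 0.03 in coverage and *P2ry1* 0.03 in FPKM. In the bladder *Kitl* was -0.05 with a gland term and -0.11 without those libraries. In the interaction *Ano1* was 0.11 in coverage and *Thbd* 0.03 without the gland libraries. *Gja1* between tissues in Y/T KO was -0.26 in TPM as deposited and -0.07 in both FPKM and coverage, but 0.84 without the gland libraries. With 1 library left out, colon changes ran from -0.53 to 0.08 for *Kit*, -0.63 to 0.18 for *Ano1*, -0.16 to 0.04 for *Pdgfra*, -0.13 to 0.11 for *P2ry1*, and -0.47 to 0.25 for *Gja1*. Those of *Kitl* in bladder ran from -0.06 to 0.09, of the interaction from -0.42 to 0.41 for *Ano1* and -0.18 to 0.09 for *Thbd*, and of *Gja1* between tissues in Y/T KO from -0.40 to 0.38. The cause was not tested.

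With 3 mice per group and no counts, differences within these intervals were not resolved, and for the low genes *Etv1* and *Prkcq* in colon the counting error is unknown. Where 1 library of a group was left, it was assumed to vary like the other groups.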
